A study of Sus scrofa with 29 samples.

Results

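The genes DPT, DCN, LUM, FBLN1, MFAP5, MFAP2, COMP, CILP, TNC and LOX, of the fibrous matrix around blood vessels, were followed in scrapes of the inner lining of pig arteries. The members were selected by gene symbol in the platform annotation, which gave 10 of the 6765 genes with a symbol and 14 of the 23999 probe sets other than controls. DCN, COMP, CILP and LOX each had 2 probe sets and the other members 1. The genes were proposed with measured values of these arrays in view, and which values led to the choice is not recorded.

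RNA was measured in 29 arrays of healthy pigs (Sus scrofa): 7 brachial arteries of exercise-trained pigs, 7 brachial arteries of sedentary pigs, 8 internal mammary arteries of exercise-trained pigs and 7 internal mammary arteries of sedentary pigs. The 15 pigs comprised 8 exercised and 7 sedentary animals, 14 of which gave both arteries, and pig 12_2, an exercised animal, lacked a brachial array. Exercised pigs ran on a treadmill for 16 to 20 weeks, with bouts of 85 min on 5 days a week reached by week 10, and were sampled about 24 h after the last bout, and sedentary pigs stayed in their enclosures. All arteries were cleaned of excess adventitia and opened before the lumen was scraped into a lysis reagent, so each sample was enriched in endothelial cells but was not a sorted cell type. In 1 label field the 8 internal mammary samples titled as exercised are called sedentary, and here titles and treatment tags were followed.

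Decorin and lumican are small leucine-rich proteoglycans that bind collagen fibrils and govern their spacing, and dermatopontin binds decorin and promotes fibril assembly. MFAP2 and MFAP5 sit on the fibrillin microfibrils of elastic fibres, and fibulin-1 is a glycoprotein of elastic fibres and basement membranes. COMP, a thrombospondin, and tenascin-C are secreted by mesenchymal cells and modulate how cells attach, CILP is a glycoprotein first described in cartilage that binds TGF-β, and lysyl oxidase (LOX) cross-links collagen and elastin. In arteries most of these proteins are laid down by fibroblasts of the adventitia and by smooth muscle.

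Array medians ran from 7.13 to 7.28 on the log2 scale, and the number of arrays limits the precision. Endothelial markers averaged 10.7 in brachial exercised, 10.7 in brachial sedentary, 10.7 in internal mammary exercised and 10.8 in internal mammary sedentary arrays. Smooth muscle RNA was also present: the 12 smooth muscle markers averaged 11.7 in brachial exercised, 11.9 in brachial sedentary, 11.3 in internal mammary exercised and 11.6 in internal mammary sedentary arrays, and ACTA2, smooth muscle actin, had group means of 13.7 to 13.9. Markers of adventitial fibroblasts other than the members, 16 of 22 measured, averaged 9.20 in brachial exercised, 9.13 in brachial sedentary, 8.92 in internal mammary exercised and 8.97 in internal mammary sedentary arrays. The arrays do not tell which cells of a scrape held the members' RNA. In these bulk samples, fewer cells of a type and less RNA per cell cannot be told apart.

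The second probe sets were dimmer and carried other patterns. For DCN the second probe set stayed between 2.07 and 2.49 on all 29 arrays, at the foot of the scale, and correlated with the first at r = -0.07. The second LOX probe set averaged 4.92 and ran against the first (r = -0.65 over 29 arrays and -0.27 after removing group means). For COMP the 2 probe sets carry the same accession and correlated at 0.60 (0.28 after removing group means). CILP, also with 1 accession, gave 0.52, which fell to 0.06 after removing group means. These correlations describe the arrays, which share pigs and processing. Each gene is given below by its brighter probe set, and the second is named where it differs.

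**Figure D1:**
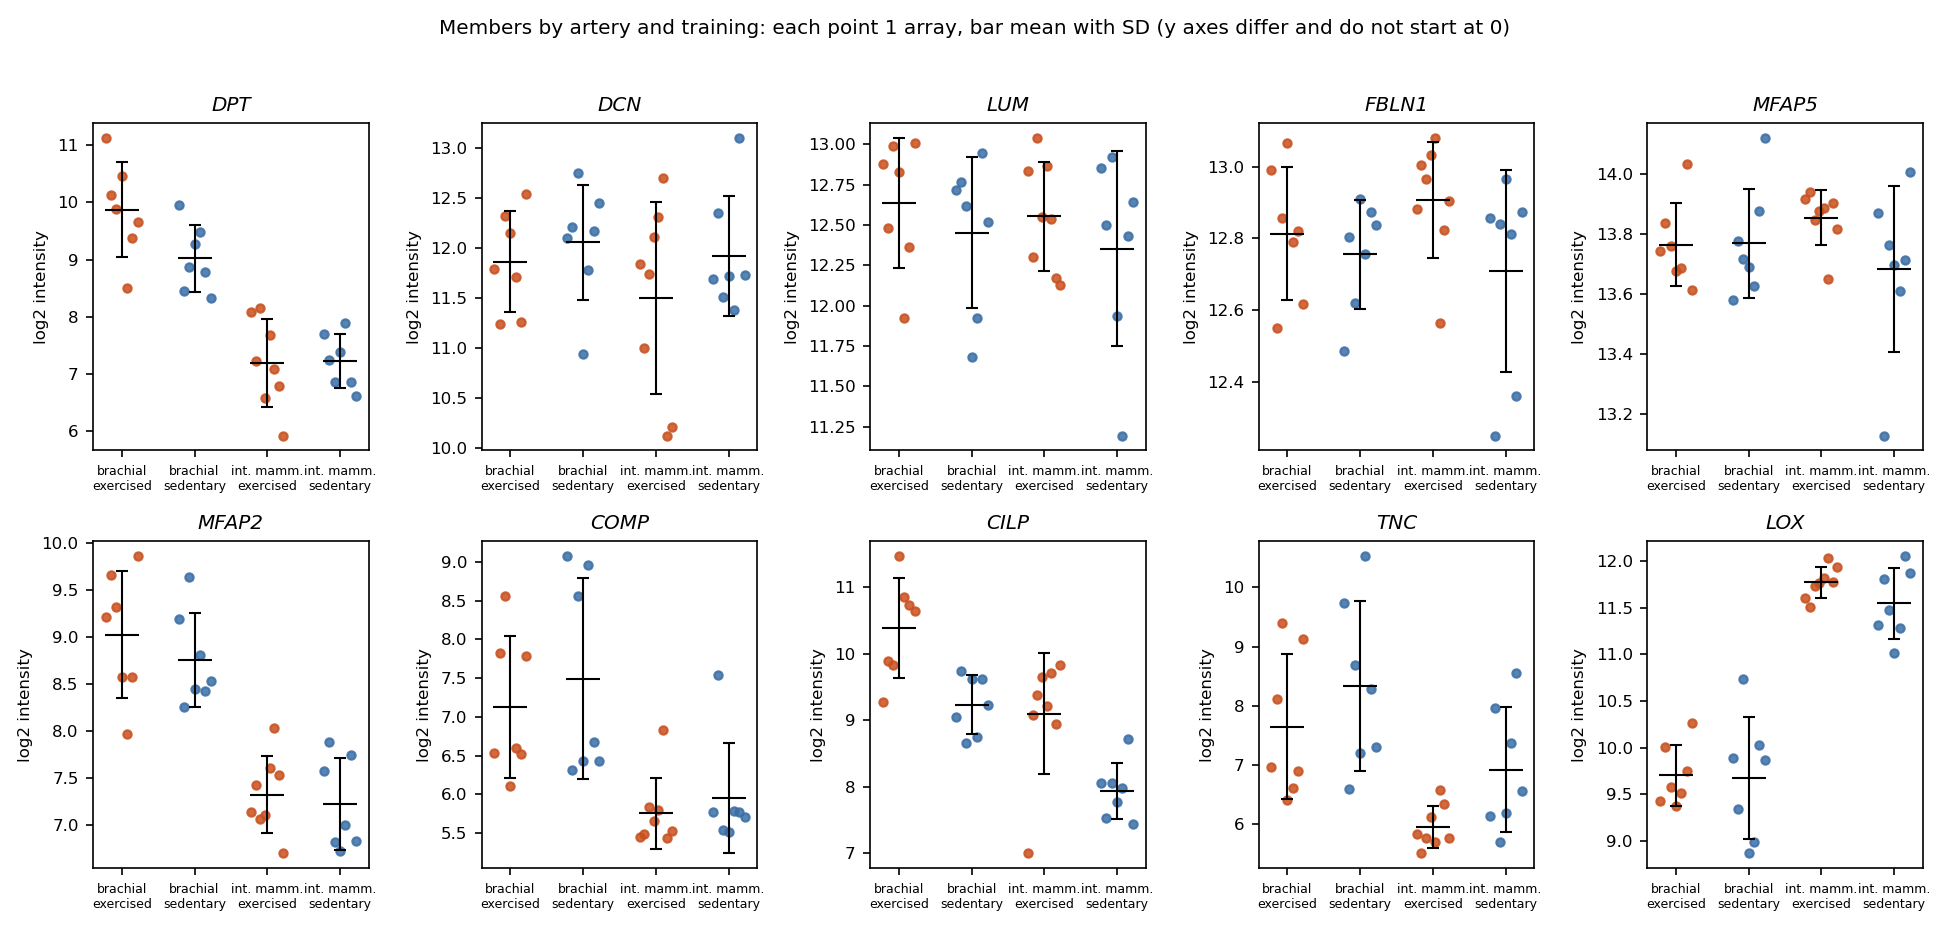
Log2 intensity (y axis) of the 10 members in the 4 groups of artery and training (x axis). Each point is 1 array, orange for exercised and blue for sedentary pigs, and bars are the group mean with its SD; DPT and LOX separate the arteries without overlap, and CILP is higher in most exercised arrays of either artery.

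The proteoglycans and their partner differed in how they varied. DPT reached a lowest, median and highest log2 intensity of 8.50, 9.88 and 11.12 in brachial exercised arrays and of 8.32, 8.87 and 9.95 in brachial sedentary arrays. In internal mammary arteries the same values were 5.93, 7.16 and 8.16 in exercised and 6.62, 7.24 and 7.89 in sedentary pigs. No brachial array was as low as any internal mammary array. DCN ranged from 11.24 to 12.55 (median 11.79) in brachial exercised and from 10.94 to 12.75 (median 12.17) in brachial sedentary arrays, and from 10.12 to 12.70 (median 11.79) in internal mammary exercised and from 11.38 to 13.10 (median 11.72) in internal mammary sedentary arrays. All 4 DCN groups overlapped, and exercised pigs 15_2 and 15_4 gave the low internal mammary values. LUM lay between 11.92 and 13.01 in brachial exercised, 11.68 and 12.95 in brachial sedentary, 12.13 and 13.04 in internal mammary exercised and 11.20 and 12.92 in internal mammary sedentary arrays, again with full overlap.

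Of the elastic fibre genes, FBLN1 and MFAP5 varied least. FBLN1 group means were 12.81 ± 0.18 in brachial exercised, 12.76 ± 0.15 in brachial sedentary, 12.91 ± 0.16 in internal mammary exercised and 12.71 ± 0.28 in internal mammary sedentary arrays (SD, n = 7, 7, 8 and 7). MFAP5 averaged 13.76 ± 0.14 in brachial exercised, 13.77 ± 0.18 in brachial sedentary, 13.85 ± 0.09 in internal mammary exercised and 13.68 ± 0.28 in internal mammary sedentary arrays (SD, same n). Single MFAP5 values of 13.13 to 14.12 stood close to the highest value on any array, 14.8. MFAP2, the other microfibril gene, ran from 7.96 to 9.86 (median 9.21) in brachial exercised and from 8.25 to 9.63 (median 8.53) in brachial sedentary arrays. Internal mammary values of MFAP2 were 6.69 to 8.03 (median 7.28) in exercised and 6.72 to 7.88 (median 7.00) in sedentary pigs. A single brachial array, of exercised pig 14_3, fell inside the internal mammary range.

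LOX was the member with the opposite arrangement. It had 9.37 to 10.26 (median 9.58) in brachial exercised and 8.86 to 10.74 (median 9.87) in brachial sedentary arrays, against 11.51 to 12.04 (median 11.77) in internal mammary exercised and 11.01 to 12.06 (median 11.48) in internal mammary sedentary arrays. The highest brachial value was below the lowest internal mammary value.

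COMP and TNC had the widest spread within groups. COMP reached 6.11, 6.60 and 8.56 (lowest, median, highest) in brachial exercised and 6.32, 6.67 and 9.08 in brachial sedentary arrays, and 5.44, 5.59 and 6.83 in internal mammary exercised and 5.52, 5.78 and 7.55 in internal mammary sedentary arrays. TNC gave 6.41, 6.96 and 9.41 in brachial exercised, 6.59, 8.28 and 10.53 in brachial sedentary, 5.50, 5.80 and 6.57 in internal mammary exercised and 5.69, 6.55 and 8.56 in internal mammary sedentary arrays. The pooled SD within groups was 1.08 for TNC and 0.886 for COMP, against a median of 0.186 over all probe sets. DCN (0.699), DPT (0.682), CILP (0.673) and MFAP2 (0.524) followed, then LUM (0.460) and LOX (0.414), while FBLN1 (0.200) and MFAP5 (0.183) were near the median.

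CILP was higher in most exercised than sedentary arrays of both arteries, with overlap. Brachial arrays had 9.27, 10.64 and 11.47 (lowest, median, highest) in exercised pigs and 8.66, 9.23 and 9.73 in sedentary pigs. Internal mammary arrays had 7.00, 9.29 and 9.83 in exercised and 7.45, 7.97 and 8.72 in sedentary pigs. In the brachial artery 6 of 7 exercised arrays exceeded the highest sedentary array. In the internal mammary artery 7 of 8 did, and the remaining one, pig 10_1, was below every sedentary array. That pig also gave the lowest exercised value in the brachial artery.

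Between arteries, as a description, 5 members were higher and 1 lower in the brachial artery at an adjusted p under 0.05. Over all probe sets 54.3% passed (31.8% higher and 22.5% lower), and nothing is read from the members' count because this contrast may have led to their choice. DPT was higher in brachial arteries by 2.23 ± 0.20 (log2 difference ± SE, brachial minus internal mammary), the second highest of 23999 probe sets. MFAP2 was higher by 1.61 ± 0.18, TNC by 1.56 ± 0.35, COMP by 1.46 ± 0.29 and CILP by 1.30 ± 0.20, and LOX was lower, at -1.97 ± 0.13. The proteoglycans and the low-spread elastic fibre genes did not pass: DCN had 0.26 ± 0.22, LUM 0.09 ± 0.13, FBLN1 -0.02 ± 0.07 and MFAP5 -0.00 ± 0.06. The 10 members ran from -1.97 to 2.23 with a median artery difference of 0.78, beside a median of 0.026 over all genes. Nothing is read from this median either, for the same reason.

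The 14 pigs with both arteries are described pig by pig, from arrays already in the contrast above, so their counts add no separate evidence. DPT and CILP were higher in the brachial artery of all 14, by 1.21 to 3.73 and by 0.46 to 2.27, and LOX was lower in all 14, by -2.52 to -0.74. Over all probe sets 8.08% were higher and 7.59% lower in every paired pig. MFAP2 was higher in 13 of 14 pigs, the exception being 14_3 at -0.07. COMP and TNC were each higher in 12 of 14, and pig 11_1 ran the other way most, at -1.23 for COMP and -1.38 for TNC. DCN was higher in 8 pigs and lower in 6, and LUM was split 7 and 7. FBLN1 was lower in 10 of 14 and MFAP5 in 8 of 14. DPT (higher) and LOX (lower) did not overlap between the 14 brachial and the 15 internal mammary arrays, where 1.73% of all probe sets were higher and 1.44% lower without overlap.

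**Figure D2:**
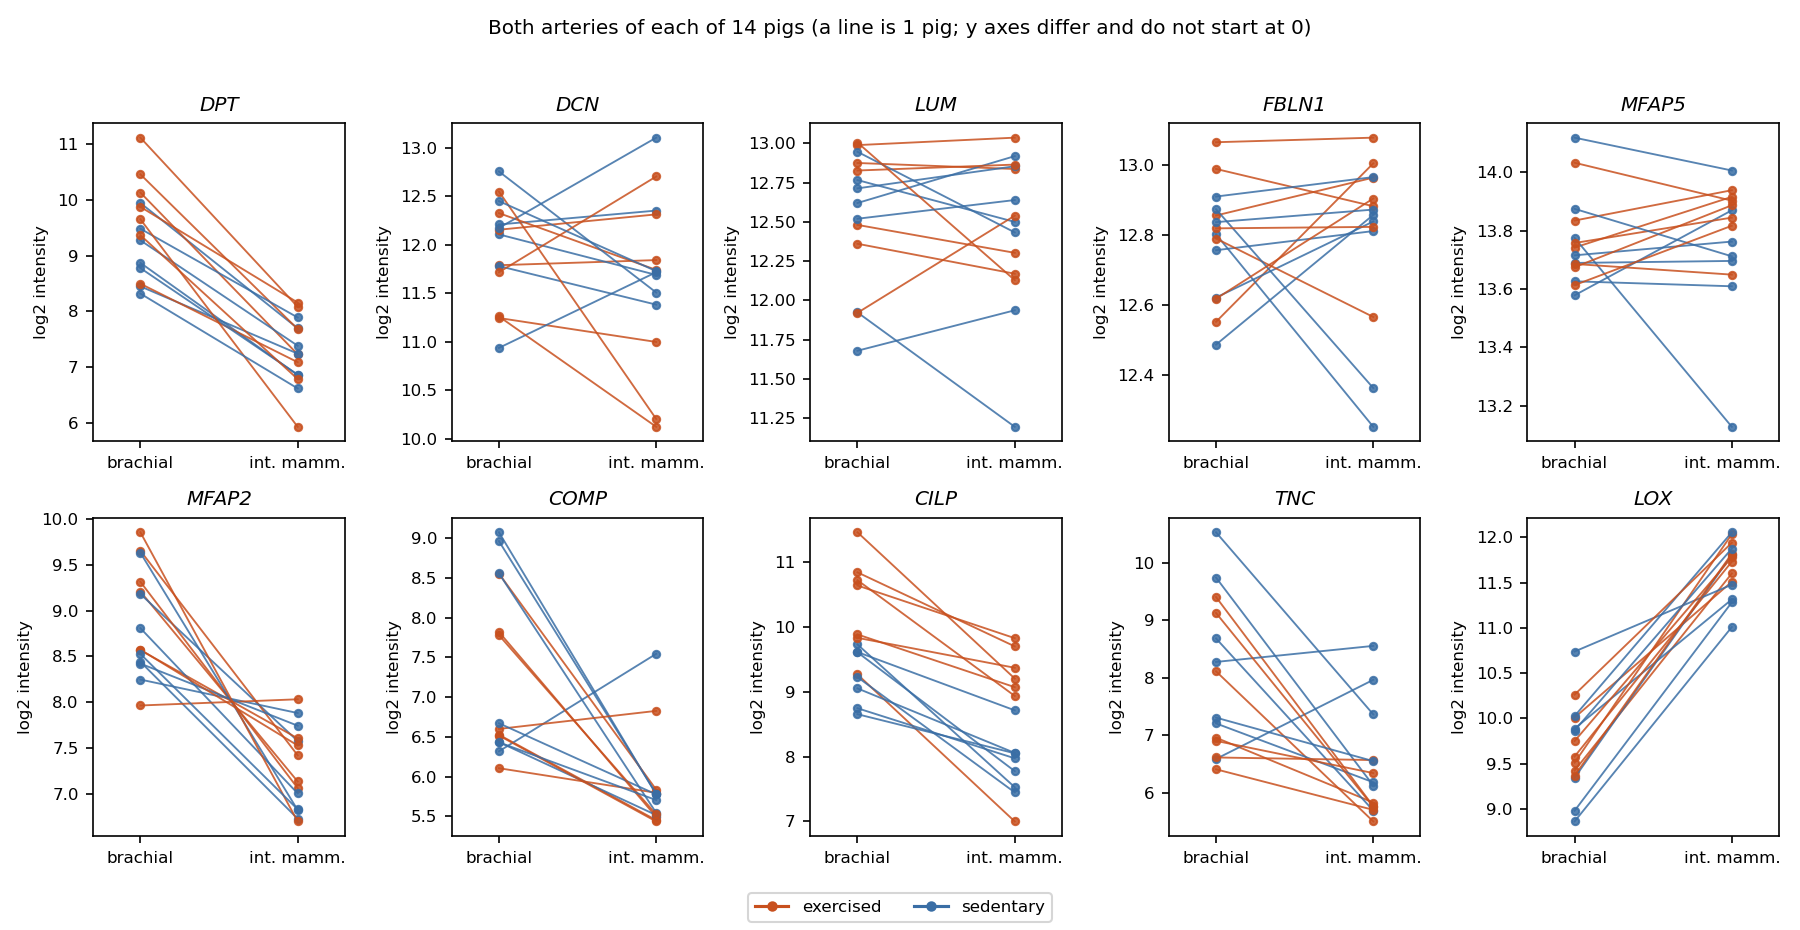
Log2 intensity (y axis) of each member in the brachial (left) and internal mammary artery (right) of 14 pigs, 1 line a pig, orange for exercised and blue for sedentary. Every line of DPT and CILP falls and every line of LOX climbs from left to right, and 2 of 14 lines climb for COMP (pigs 11_1 and 14_3) and for TNC (pigs 11_1 and 15_1).

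Within exercised pigs the artery difference of DPT was 2.66 ± 0.28, and within sedentary pigs 1.80 ± 0.28. For the other members that passed, the exercised and sedentary differences were 1.69 and 1.53 for MFAP2, 1.70 and 1.41 for TNC, 1.37 and 1.54 for COMP, 1.31 and 1.30 for CILP and -2.07 and -1.87 for LOX. The probe sets of 1 gene did not always share a sign. The second LOX probe set was higher in brachial arteries, at 0.21 ± 0.05 and in 13 of 14 pigs, against the first. The second probe sets of CILP (0.29), COMP (0.28) and DCN (0.08) had the sign of the first with a smaller size. Averaging each gene's probe sets left LOX at -0.88, COMP at 0.87 and CILP at 0.79.

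Array chemistry moved with the artery. The BioB hybridisation controls, bacterial transcripts spiked into the hybridisation, read 9.23 to 9.87 in brachial exercised and 9.28 to 9.63 in brachial sedentary arrays, against 8.32 to 8.74 in internal mammary exercised and 8.26 to 8.91 in internal mammary sedentary arrays, with no overlap between arteries. Array processing and artery therefore cannot be told apart for the differences above. Of all genes 30.4% were higher and 21.2% lower in brachial arteries. Of the 12 smooth muscle markers 3 were higher, 1 (MYLK) was lower and 8 did not pass. Their differences had a median of 0.17 and ran from -0.87 to 2.11. The highest was DES, the muscle intermediate filament desmin, at 2.11 ± 0.36. Of the 16 other adventitial fibroblast markers 6 were higher, among them THY1 (1.38 ± 0.20) and FAP (1.16 ± 0.21), and 2 were lower, CFD (-0.92 ± 0.09) and CLEC3B (-0.29 ± 0.05). With either marker mean as a covariate, 6 members still passed between arteries. Beyond this the part of these markers in the members' differences was not tested.

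Training was compared as exercised minus sedentary in a linear model over all probe sets (limma), with adjusted p-values over all 23999. Results of these arrays were known when the genes were chosen, so a pass is not independent evidence. In the brachial artery 0 of 10 members passed, where 1.63% of all probe sets did. CILP came nearest, at 1.17 ± 0.33 (2.25-fold) with an adjusted p of 0.0625 and an unadjusted p of 0.00138. DPT had 0.83 ± 0.33 (adjusted p = 0.197), and 6 of 7 exercised arrays were above the sedentary mean. TNC had -0.68 ± 0.57 and COMP -0.37 ± 0.48, and the other 6 members lay between -0.17 and 0.26. At an unadjusted p under 0.05 the members numbered 2, CILP and DPT, beside 1399 of 6765 genes. Exercised and sedentary arrays overlapped for all 10, where 0.604% of all probe sets did not.

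In the internal mammary artery 0 of 10 passed, beside 0.596% of all probe sets. At an unadjusted p under 0.05 there was 1 member, CILP, beside 1131 of 6765 genes. CILP had 1.16 ± 0.32 (2.24-fold, adjusted p = 0.0855), beside 1.17 in the brachial artery. All 10 members overlapped between training groups, where 0.288% of all probe sets did not. TNC had -0.97 ± 0.56 (adjusted p = 0.507), and all 8 exercised arrays were below the sedentary mean of 6.92. Among the sedentary pigs, 11_1 (7.97), 13_2 (7.37) and 15_1 (8.56) gave the high values. DPT stood at -0.03 ± 0.32. FBLN1 had 0.20 ± 0.11 and MFAP5 0.17 ± 0.09, with adjusted p-values of 0.466 and 0.482.

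Averaged over both arteries, CILP rose by 1.16 ± 0.26 on the log2 scale, a 2.24-fold change (95% interval 0.64 to 1.69, limma adjusted p = 0.00791). It was the 10th highest training change of 23999 probe sets and the 1 member of 10 that passed, where 4.68% of all probe sets passed (2.88% higher). Training is constant within a pig, so no within-pig value exists; comparing 1 mean over both arteries for each of the 14 paired pigs gave 1.11 ± 0.28 with an adjusted p of 0.0573. The second CILP probe set, of the same accession, had 0.12 ± 0.08 in the brachial artery, -0.02 ± 0.08 in the internal mammary artery and 0.05 ± 0.06 on average (adjusted p = 0.718), so the change rests on 1 probe set. TNC averaged -0.83 ± 0.45 (adjusted p = 0.332), DPT 0.40 ± 0.26 (0.429) and the others between -0.30 and 0.19. All 12 smooth muscle markers also had a negative training estimate on average, and 0 passed. In the brachial artery 3 of 11 macrophage markers fell with training. For CILP an adjustment for the smooth muscle markers is given below. The part of the macrophage markers in the members' values was not tested.

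**Figure D3:**
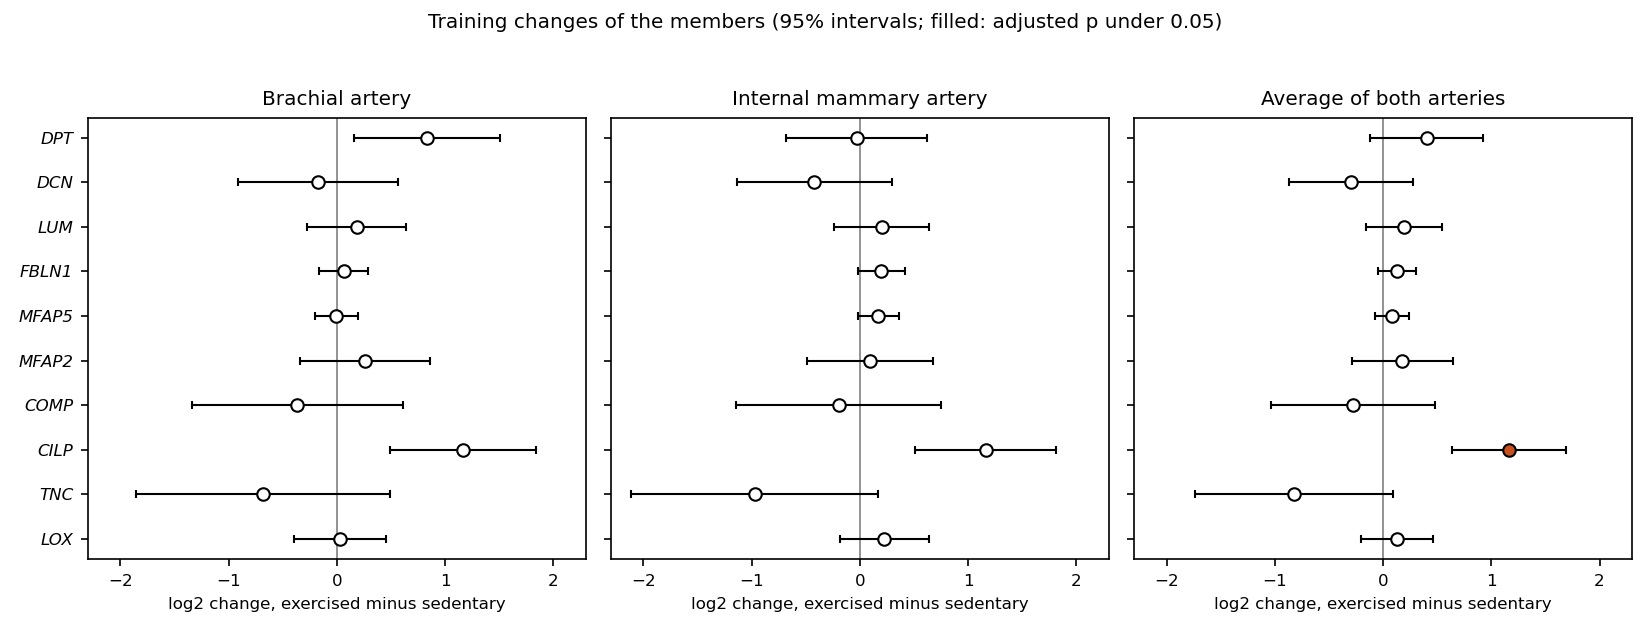
Training change of each member (x axis, log2 exercised minus sedentary) in the brachial artery, the internal mammary artery and their average. Circles are estimates, bars 95% intervals, and the filled circle marks an adjusted p under 0.05: CILP lies above 0 in all 3 panels, at 1.17, 1.16 and 1.16, and passes in the average.

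Collection day and CILP gave r = 0.51 and rho = 0.42 in 14 brachial arrays (permutation p = 0.0884 and 0.166) and r = 0.45 and rho = 0.30 in 15 internal mammary arrays (permutation p = 0.106 and 0.289), after removing group means. The adjusted p for Pearson's r was 0.464 in each, and without the 2 farthest arrays r was 0.33 and 0.03. The arteries came largely from the same pigs on the same days, so these are not separate observations. In a split by collection chosen after seeing the data, among the 8 pigs collected first (days 0 to 26) the averaged CILP change was 0.70 ± 0.37 (adjusted p = 0.378), and among the 7 collected last (days 28 to 48) it was 1.55 ± 0.25 (adjusted p = 0.0419), and the difference between these sets was not tested. In brachial arteries of the pigs collected last, exercised arrays read 11.47, 10.85, 10.73 and 10.64, against 8.75, 9.62 and 9.23 in sedentary arrays. In brachial arteries of the pigs collected first, exercised arrays read 9.27, 9.89 and 9.84, against 9.05, 9.73, 8.66 and 9.61 in sedentary arrays. Internal mammary arrays of paired pigs collected last read 9.21, 9.70, 8.94 and 9.83 in exercised, against 7.97, 8.72 and 7.45 in sedentary pigs. Those of paired pigs collected first read 7.00, 9.07 and 9.37 in exercised, against 8.06, 7.53, 8.05 and 7.78 in sedentary pigs. There pig 10_1 read below every sedentary array and the other exercised arrays read above them. Exercised pig 12_2, collected on day 19, was part of the estimate for the 8 pigs but is not paired and not listed here. Its internal mammary array also read above every sedentary array. With collection day as a covariate the averaged change was 1.23 ± 0.23. Adjusting for the smooth muscle markers gave 1.09 ± 0.26. The labelled 28S/18S ratio, a measure of RNA integrity, averaged 1.41 in brachial exercised, 1.38 in brachial sedentary, 1.33 in internal mammary exercised and 1.19 in internal mammary sedentary arrays, and with it as a covariate the change was 1.30 ± 0.26. In brachial arrays, after removing group means, CILP gave r = -0.82 with adipocyte, -0.74 with other adventitial fibroblast and -0.64 with smooth muscle markers. It gave -0.69 with skeletal muscle markers and -0.62 with the BioB controls. In internal mammary arrays these were -0.06, 0.11, 0.15, -0.19 and 0.10. These correlations were not tested.

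Whether the training change differed between arteries was tested as an interaction, the brachial minus the internal mammary training change. It passed for 0 of 10 members and for 0% of all probe sets in limma, while 263 of 6765 genes had an unadjusted p under 0.05. DPT had 0.86 ± 0.40 (95% interval 0.05 to 1.67, unadjusted p = 0.0385), and its adjusted p was 1.00. CILP had 0.01 ± 0.40, with an interval of -0.81 to 0.82, and TNC 0.29 ± 0.69.

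Scrapes differed in smooth muscle markers, and members moved with other marker means too. In brachial arrays, after removing group means, MFAP2 gave r = 0.84 with smooth muscle and 0.88 with other adventitial fibroblast markers. It gave 0.80 with adipocyte and 0.79 with skeletal muscle markers. In the same order COMP gave 0.95, 0.68, 0.76 and 0.74, TNC 0.94, 0.66, 0.64 and 0.66, and FBLN1 -0.68, -0.33, -0.59 and -0.49. These values were not tested. In each artery the smooth muscle marker mean was cut at its widest gap, a step that gives 2 ranges for any values. The gap ran from 11.71 to 12.16 in brachial and from 11.50 to 12.00 in internal mammary arteries. In the brachial artery 6 arrays (3 exercised, 3 sedentary) lay at 12.16 to 12.88 and 8 arrays (4 and 4) at 10.99 to 11.71. The 6 arrays had COMP of 7.78 to 9.08, against 6.11 to 6.67 in the 8. How many of all probe sets separated the same arrays was not computed. TNC read 8.11 to 10.53 in the 6 and 6.41 to 8.28 in the 8, and MFAP2 8.81 to 9.86 in the 6 and 7.96 to 9.21 in the 8. FBLN1 was the reverse, at 12.49 to 12.86 in the 6 and 12.79 to 13.07 in the 8. CILP read 8.66 to 10.64 in the 6 and 9.23 to 11.47 in the 8. DCN, LUM, LOX and DPT also overlapped between these sets.

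In the internal mammary artery 4 arrays (2 exercised, 2 sedentary) had smooth muscle means of 12.00 to 12.54 and 11 arrays 10.72 to 11.50. COMP read 5.44 to 7.55 in the 4 and 5.45 to 5.84 in the 11, and its high values were those of pigs 11_1 (7.55) and 14_3 (6.83), which also held the highest smooth muscle means. MFAP2 read 7.53 to 8.03 in the 4 and 6.69 to 7.60 in the 11, and LOX 11.78 to 12.06 in the 4 and 11.01 to 11.94 in the 11. TNC was 6.35 to 8.56 in the 4 and 5.50 to 7.37 in the 11. FBLN1 was 12.25 to 12.82 in the 4 and 12.81 to 13.08 in the 11. These sets were formed from marker values, not by the study, and no test was made between them.

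**Figure D4:**
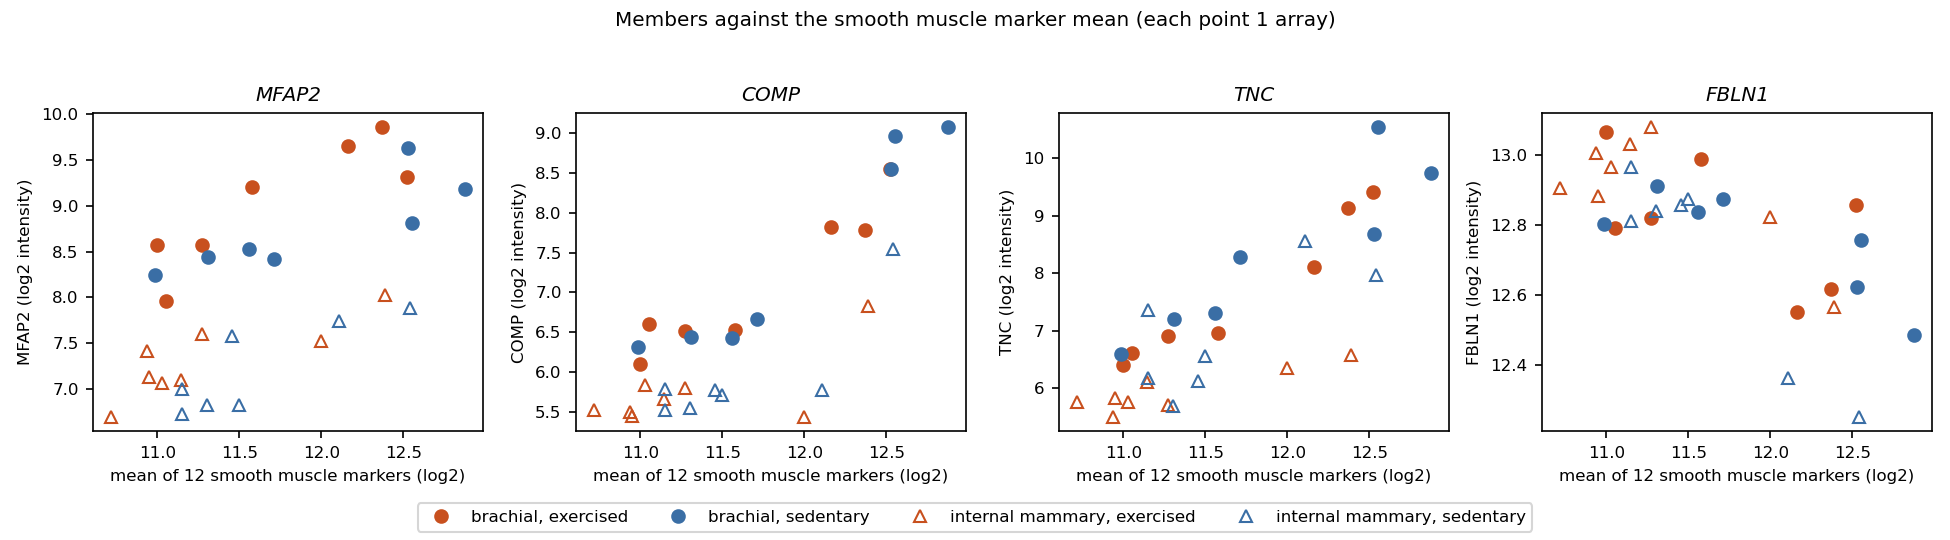
Log2 intensity of MFAP2, COMP, TNC and FBLN1 (y axes) against the mean of 12 smooth muscle markers (x axis) on 29 arrays, filled circles for brachial and open triangles for internal mammary arteries, orange for exercised and blue for sedentary pigs. The 6 brachial arrays with marker means from 12.16 up read 7.78 to 9.08 in COMP and 12.49 to 12.86 in FBLN1.

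Within these ranges no relation passed adjustment. Group means were not removed here, so differences between exercised and sedentary arrays, such as that of CILP, enter these correlations. Among the 8 brachial arrays TNC and the smooth muscle mean gave Pearson's r = 0.85 (exact permutation p = 0.000992) and Spearman's rho = 0.90 (exact permutation p = 0.00456), with r = 0.82 without the 2 arrays farthest from the median. Among the 6 arrays above the gap COMP gave r = 0.87 (exact permutation p = 0.00417) and rho = 0.94 (exact permutation p = 0.0167), with r = 0.97 without the 2 farthest. MFAP2 ran the other way in those 6 arrays (r = -0.57, rho = -0.83, exact permutation p = 0.226 and 0.0583, -0.77 without the 2 farthest). CILP in the 8 arrays gave r = -0.70 and rho = -0.69 (exact permutation p = 0.0563 and 0.0694, -0.93 without the 2 farthest). The permutation tests covered 60 relations of members with smooth muscle in these ranges, collection day or the other artery. Over these the smallest Benjamini-Hochberg adjusted p for Pearson's r was 0.0595.

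After removing group means, DPT was lower on later days in both arteries, with r = -0.58 and rho = -0.63 in 14 brachial arrays (permutation p = 0.0442 and 0.0263) and r = -0.62 and rho = -0.63 in 15 internal mammary arrays (permutation p = 0.0224 and 0.0200). Without the 2 arrays farthest in collection day, which narrows the range of days, r was -0.30 and -0.40. The adjusted p for Pearson's r was 0.353 in each artery. The arteries came largely from the same pigs on the same days, so these are not separate observations. With the BioB controls DPT gave r = 0.61 in brachial and 0.24 in internal mammary arrays after removing group means, which was not tested. Pigs high in DPT in 1 artery tended to be high in the other (r = 0.61, rho = 0.69, permutation p = 0.0412 and 0.0114, 0.80 without the 2 farthest, adjusted p = 0.353, n = 14). MFAP2 gave r = -0.61 and rho = -0.65 between arteries (permutation p = 0.0242 and 0.0159, -0.40 without the 2 farthest, adjusted p = 0.353).

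Genes of the same matrix families were described for comparison from lists drawn up with earlier results known. Among 11 measured of 25 other proteoglycans, 1 rose with training on average and 0 fell, beside 4.67% and 2.88% of the 6765 genes. The riser was VCAN, versican, a large hyaluronan-binding proteoglycan, at 0.87 ± 0.23 (limma adjusted p = 0.0255), with 11.34 and 10.23 in internal mammary exercised and sedentary arrays. Biglycan (BGN), the nearest relative of decorin, had 0.06 ± 0.15. Between arteries 3 of the 11 were higher and 2 lower in the brachial artery, beside 30.4% and 21.2% of genes, and HAPLN1, which ties hyaluronan to proteoglycans, was lower at -0.97 ± 0.21.

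Of 6 measured of 20 other elastic fibre genes, 0 passed for training. FBN1, the fibrillin that carries MFAP2 and MFAP5, had 0.04 ± 0.09. Between arteries EMILIN2 (0.35 ± 0.09) and MGP, a mineralization inhibitor (0.07 ± 0.03), were higher in the brachial artery, MGP in 13 of 30 alternative settings. The 11 measured of 27 thrombospondin, tenascin and other matricellular genes gave 0 passes for training. THBS3, a thrombospondin close to COMP, was higher in brachial arteries at 0.98 ± 0.15, as were POSTN, periostin (0.96 ± 0.20), and FN1, fibronectin (0.14 ± 0.03), while CYR61 was lower at -0.99 ± 0.13.

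Collagen processing held 2 further genes that rose. BMP1, the protease that trims procollagen and activates LOX, rose by 0.58 ± 0.10 on average (adjusted p = 0.00102), and passed in the brachial (0.60, adjusted p = 0.0119) and the internal mammary artery (0.55, adjusted p = 0.0280). CRTAP, a subunit of the collagen prolyl 3-hydroxylase complex, rose by 0.14 ± 0.04 (adjusted p = 0.0230). The other 7 of 9 measured of 21 did not pass, LOXL1 among them at 0.35 ± 0.19. LOX itself had 0.13 ± 0.16.

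Fibrillar and associated collagens, 10 of 15 measured, were mostly higher in the brachial artery. There 8 were higher and 0 lower, where 30.4% and 21.2% of all genes were, with a median of 0.66 beside 0.026 over all genes, led in size by COL6A3 (1.36 ± 0.27), COL6A2 (1.32 ± 0.21), COL5A3 (0.99 ± 0.12) and COL8A1 (0.87 ± 0.07). With training COL8A1, a short-chain collagen of vessel walls, rose by 0.49 ± 0.09 (adjusted p = 0.00219) and the other 9 did not pass. In TGF-β signalling, whose ligands decorin and CILP can bind, 9 of 16 genes were measured, 0 rose and 1 fell with training, SMAD4 (-0.14 ± 0.04, adjusted p = 0.0408), which passed in 12 of 30 alternative settings. TGFB2 had 0.45 ± 0.14 (adjusted p = 0.0556) and TGFB1 -0.23 ± 0.10 (adjusted p = 0.180).

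The genes whose pattern was most like the members' were found over 29 arrays after removing group means, as Pearson's r with the mean of the 10 standardized members. CHRNA1 came first at 0.83, then EPB41L1 (0.78), ORMDL3 (0.76), HEBP2 (0.76), SERPINF1 (0.75), ANKRD39 (0.74), MAP1A (0.73), COL6A3 (0.73), FGFBP3 (0.73) and RARRES2 (0.72). Against the mean of the other 9, the members themselves gave r from -0.52 (FBLN1) to 0.56 (MFAP2), so they did not vary as 1 group.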

How the data were processed

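The authors deposited 1 log2 intensity per probe set and array from a single-colour porcine oligonucleotide array. The submitters' processing notes name affy, with no version. How probes were summarised, background-corrected and normalized is not given in the sources used here. Of the deposited probe sets, 124 controls were left out. Symbols came from the platform annotation: 10069 probe sets had 1 symbol, 198 several and 13732 none. All 10 members' Entrez identifiers matched the same symbol in the reference gene table. Groups followed titles and treatment tags, and both arteries came from the same pigs per the labels.

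A linear model with a mean for each of the 4 groups was fitted to every probe set (limma 3.58.1, R 4.3.3). Arrays of 1 pig were treated as a random block, whose correlation of 0.255 was reused where pigs or arrays were left out, and p-values were adjusted by Benjamini-Hochberg at 0.05. Alternatives changed the block, the dim filter, the scaling, the prior, the array weights, a covariate, the choice of probe set, or left out pigs. The fit was tested on simulated data. ± is the SE unless SD is stated. A gene was represented by its brightest probe set. Named genes were all members, up to 4 per list by smallest p over the averaged training and artery contrasts, and the 10 genes most like the members; BGN, LOXL1, TGFB1 and ACTA2 lie outside this rule and were chosen after their values were seen. Permutations were exact for up to 8 arrays and otherwise used 100000 resamples, with scipy 1.17.1. They stayed within training groups for collection day and the other artery, and mixed exercised and sedentary arrays for smooth muscle. The members and lists were chosen with earlier results of these data known.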

Additional observations from a re-analysis of the deposited data

Results flagged for a closer look

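Among the member values of 56 groups, 4 single arrays stood apart from the rest of their group by Dixon's criterion, where chance marks about 1 group in 20. COMP was highest in the internal mammary artery of exercised pig 14_3, at 6.83 with the next array at 5.84. COMP was also highest in the internal mammary artery of sedentary pig 11_1, at 7.55 with the next at 5.79. MFAP5 was lowest in the internal mammary artery of exercised pig 14_3, at 13.65 with the next at 13.82. CILP was lowest in the internal mammary artery of exercised pig 10_1, at 7.00 with the next at 8.94.

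Pigs 14_3 and 11_1 had the highest internal mammary smooth muscle marker means, 12.39 and 12.54. Without these 2 internal mammary arrays the artery differences were 1.71 for COMP, 1.75 for TNC and 1.75 for MFAP2, against 1.46, 1.56 and 1.61 with all arrays. Pig 10_1 also had the highest internal mammary erythroid marker mean, 11.07. Without pig 10_1 the averaged CILP change was 1.40 with an adjusted p of 0.000375.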

How the results depend on the processing

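The count of members passing for training in the brachial artery was 0 and became 1, CILP, without the 33.3% dimmest probe sets, with array weights, or with the 28S/18S ratio, collection day, smooth muscle mean or other adventitial fibroblast mean as a covariate; with single pigs left out it ranged from 0 to 1, and was 1 without pig 10_1. In the internal mammary artery it was 0 and became 1, CILP, with array weights, the 28S/18S ratio or collection day, and with single pigs left out it ranged from 0 to 1, again 1 without pig 10_1. Averaged over arteries it was 1 and became 0 when the 14 paired pigs entered by their means over both arteries, the form a fixed replicate block takes for training (CILP 1.11, adjusted p = 0.0573), and in the 8 pigs collected first (CILP 0.70, adjusted p = 0.378). Over 30 alternatives the averaged CILP change lay between 0.61 and 1.55, with adjusted p from 0.000375 to 0.378, and passed in 28. The artery count was 6 throughout, except 5 in the 7 pigs collected last, where TNC had 1.19 ± 0.48. The interaction count was 0 in all. Of 780 recomputed changes of single members, 766 kept their side of the threshold, 11 passed anew and 3 no longer passed; 32 that passed in neither setting changed sign, and none that passed did. Training cannot be estimated within pigs, so under the replicate block alternative each artery was fitted alone and the average used pig means; these fits called 122 (brachial), 13 (internal mammary) and 364 (average) of all probe sets, against 392, 143 and 1123. Of the other training calls named, VCAN passed in 23 of 30 settings, CRTAP in 25, COL8A1 in 28 and BMP1 in 29. The causes of these changes were not tested. Alternatives on collection period and on pigs 11_1 and 14_3 were chosen after seeing the data. Signal over background could not be measured from these files.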
